A study of Mus musculus with 12 samples.

Results

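The AP-1 and immediate-early transcription factors were followed as 9 genes: Fos, Fosb, Fosl1 and Fosl2 of the Fos family, Jun, Junb and Jund of the Jun family, and the stress-responsive regulators Atf3 and Egr1. They were taken by their symbols from a deposited table of read counts for 21899 genes, and each symbol had a single row. All 9 were among the 11656 genes that passed the filter on low counts. Fosb and Fosl1 had few reads throughout, and Fosb was kept through the control group, where it was high.

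The table came from RNA sequencing of primary bone marrow-derived macrophages of wild-type mice, which are phagocytes grown in culture from marrow. The cells were given PgLPS together with CS-PA/CNP, PgLPS alone, CS-PA/CNP alone, or no agent as the control, with 3 libraries in each of the 4 groups. Neither abbreviation is spelled out by the labels, which also give no dose, time, age of the mice or order of addition. The series title places the work in the development of a composite hydrogel for periodontitis and hypertension, and every group shares the same cell type and genotype.

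AP-1 is a dimer of basic leucine zipper proteins. A Jun protein pairs with another Jun protein or with a Fos protein, and the pair binds a short palindromic DNA site. Fos proteins do not form stable pairs with each other, so the Jun proteins are the shared partners of the family. Many of these genes are immediate-early genes: their transcription starts within minutes of a signal, through kinases and factors already in the cell, and their messengers are often short-lived. In macrophages, lipopolysaccharide signals through MAP kinases to AP-1, which acts at cytokine, protease and prostaglandin genes. Atf3, a zipper protein of the ATF/CREB family, is known in mouse macrophages as a brake on Toll-like receptor responses. Egr1 is a zinc finger factor that binds GC-rich sites.

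Levels are given as CPM, read counts scaled to a common library size by the library total times its TMM factor, a composition correction. Differences are log2 fold changes with their standard errors, from edgeR's quasi-likelihood test on all 12 libraries, and a gene was called where its Benjamini-Hochberg adjusted p over all tested genes was under 0.05. The library totals were 16301947 to 19422021 reads with both agents, 14992707 to 19252143 with PgLPS, 16130784 to 20082900 with CS-PA/CNP and 15570148 to 17339556 in control. The TMM factors were 0.890 to 0.901 with both agents, 0.853 to 0.875 with PgLPS, 1.11 to 1.12 with CS-PA/CNP and 1.15 to 1.16 in control. The titles number the libraries of a group as biological replicates without naming an animal or culture for each, so a p-value here measures the spread between these samples alone, which may be technical.

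The 9 macrophage markers summed to 28292 to 29736 CPM with both agents, 29350 to 31736 CPM with PgLPS, 22819 to 24437 CPM with CS-PA/CNP and 20141 to 21529 CPM in control. Lyz2 made up most of each sum, and single markers moved in opposite directions. Cd14 had 1921 to 2161 CPM with PgLPS and 269 to 311 CPM in control. Mrc1 had 67.7 to 80.9 CPM with PgLPS and 138 to 156 CPM in control, and Cd68 was also lower with PgLPS. The 6 stromal markers summed to 1.91 to 4.62 CPM with both agents, 5.82 to 53.5 CPM with PgLPS, 0.607 to 2.10 CPM with CS-PA/CNP and 0.472 to 2.71 CPM in control. The highest of these sums was in PgLPS library 1, which is therefore also left out beside the results with PgLPS below. The 8 granulocyte markers summed to 180 to 207 CPM with both agents, 225 to 251 CPM with PgLPS, 115 to 167 CPM with CS-PA/CNP and 151 to 183 CPM in control, and the part of these shifts in the results was not tested. The B cell, dendritic cell and erythroid lists each stayed under 6 CPM, the T and NK cell list reached at most 12.4 CPM, and Cd8a was at 0 reads in every library. In bulk RNA, fewer cells of a type and less messenger per cell cannot be told apart.

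Promoter sequences were available for 7 of the 9 genes, all but Fosl1 and Egr1, from RefSeq on GRCm38.p6. Shown are the 150 bases before the transcript start of Fos, Jun and Atf3, the genes with a near match to the cyclic AMP response element TGACGTCA, a site for ATF/CREB and Jun proteins, and of Junb, which rose most in PgLPS. Each is written 5′ to 3′ on the strand of its gene, with coordinates on GRCm38.p6. Capitals mark TGACGTCA with at most 1 mismatch and its half-site TGACG, which can lie within the longer match.
Fos (chr12:85473740-85473889, plus strand): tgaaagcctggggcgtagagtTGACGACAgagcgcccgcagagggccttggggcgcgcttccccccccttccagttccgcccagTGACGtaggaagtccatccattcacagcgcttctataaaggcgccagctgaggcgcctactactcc
Jun (chr4:95052223-95052372, minus strand): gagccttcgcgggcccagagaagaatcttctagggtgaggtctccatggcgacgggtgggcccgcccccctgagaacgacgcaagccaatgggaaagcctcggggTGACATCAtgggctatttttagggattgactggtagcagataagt
Atf3 (chr1:191183334-191183483, minus strand): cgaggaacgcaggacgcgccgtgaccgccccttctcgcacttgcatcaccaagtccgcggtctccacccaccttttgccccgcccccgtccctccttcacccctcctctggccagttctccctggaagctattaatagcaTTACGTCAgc
Junb (chr8:84978749-84978898, minus strand): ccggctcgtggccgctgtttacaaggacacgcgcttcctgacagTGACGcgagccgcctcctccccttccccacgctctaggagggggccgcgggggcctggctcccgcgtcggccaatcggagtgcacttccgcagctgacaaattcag

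In the 250 bases before the start, on both strands, TGACGTCA with at most 1 mismatch was found in 3 of the 7 genes, and in 10.6% of 32841 RefSeq promoters searched the same way. In Jun the match was TGACATCA, 45 to 38 bases before the start. In Atf3 it was TTACGTCA, 10 to 3 bases before the start. Fos held TGACGACA, 129 to 122 bases before the start, and a further TGACG at 66 to 62 bases. The half-site TGACG was found in Fos, Fosb, Junb and Atf3, against 17.8% of all promoters. The AP-1 site TGACTCA, present in 4.46% of promoters, was in none of the 7, nor was the CArG box, the serum response factor site, present in 1.47%. Sites farther than 250 bases from the start were not searched, and Fosl1 and Egr1 had no sequence. These absences therefore do not show that a gene lacks such a site. TATAAA was in Fos only, against 12.4% of promoters, and the Egr site GCGNGGGCG in Fosb and Fosl2, against 4.70%. A match to these letters is a description of the window and not a measured binding site.

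Per kilobase of the deposited gene length, 4 genes stood far above the other 5 in every group. In control the order was Atf3 (151 ± 8.5 CPM per kilobase, SD, n = 3), Fos (96.2 ± 4.1), Junb (65.9 ± 4.7) and Jun (43.7 ± 2.0), with no overlap between neighbours. The rest of the control order was Fosl2 (4.81 ± 0.35), Jund (4.25 ± 0.93), Egr1 (2.95 ± 0.47), Fosl1 (0.715 ± 0.24) and Fosb (0.276 ± 0.058). Among these, the libraries of Fosl2 and Jund overlapped, as did those of Jund and Egr1.

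The leading gene differed between the groups. Junb stood first with PgLPS alone, at 155 ± 9.5 CPM per kilobase (SD, n = 3), ahead of Atf3 at 105 ± 4.8, Fos at 59.3 ± 2.7 and Jun at 40.1 ± 2.7. With both agents Atf3 was first again, at 161 ± 5.3 CPM per kilobase, followed by Junb at 126 ± 1.6, Fos at 92.9 ± 0.75 and Jun at 41.2 ± 2.5. With CS-PA/CNP alone the order matched that of control at the top, with Atf3 at 130 ± 9.8, Fos at 112 ± 1.5, Junb at 80.0 ± 1.2 and Jun at 47.7 ± 1.6 CPM per kilobase. None of these neighbours overlapped within their group. Fosl2 ranked next with PgLPS alone, at 10.8 ± 1.2 CPM per kilobase against 4.55 ± 0.75 for Jund. With both agents the libraries of Jund (4.59 ± 1.1) and Fosl2 (4.58 ± 0.89) overlapped, as did those of Fosl1 (1.26 ± 0.50) and Egr1 (1.11 ± 0.11). The lower ranks with CS-PA/CNP were Jund (5.22 ± 0.57), Fosl2 (3.73 ± 0.072), Egr1 (1.65 ± 0.34), Fosl1 (0.958 ± 0.33) and Fosb (0.0886 ± 0.056), and with PgLPS Egr1 (2.43 ± 0.34), Fosl1 (0.446 ± 0.20) and Fosb (0.0528 ± 0.0045) followed Jund. Fosb was last with both agents too, at 0.0309 ± 0.046 CPM per kilobase.

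**Figure D1:**
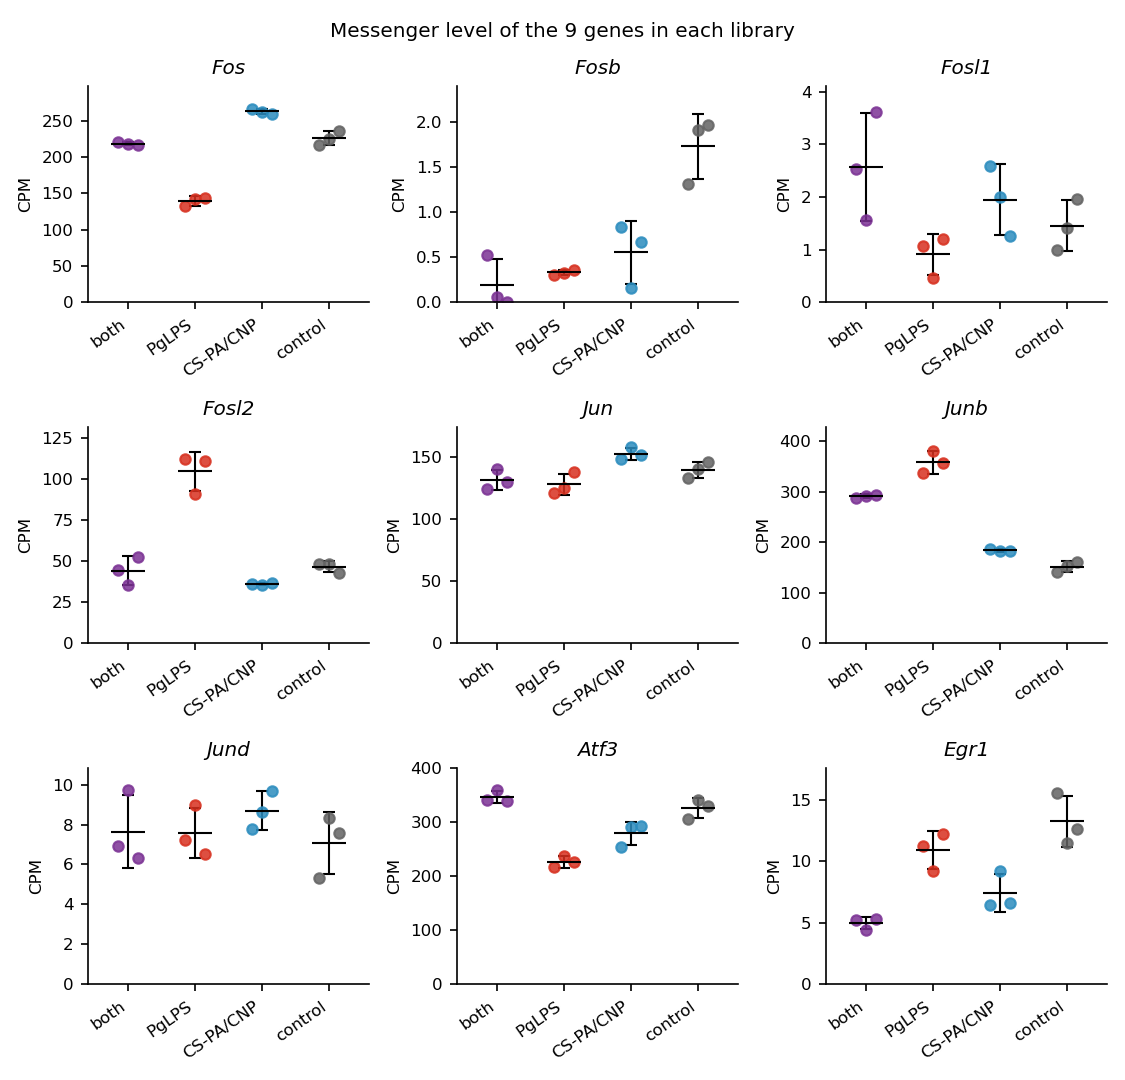
CPM of each of the 9 genes (vertical axis, from 0, a separate scale per gene) in the 3 libraries of each group, where "both" means PgLPS with CS-PA/CNP; points are libraries, the long bar is the mean and the error bar 1 SD. Junb and Fosl2 stand highest with PgLPS alone and Fos and Atf3 lowest there, while Jun stays between 121 and 158 CPM in every library.

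PgLPS alone was first set against control, to see how the 9 genes stood in cells given this agent and no other. Junb and Fosl2 were higher, at 2.36-fold and 2.25-fold, and Fos, Fosb and Atf3 were lower, at 0.617-fold, 0.196-fold and 0.695-fold of control. Jun, Jund, Fosl1 and Egr1 did not pass the test. The 2 genes called higher compare with 32.2% of all tested genes called higher. The 3 called lower, among them Fosb, which the filter kept through control, compare with 31.6% called lower. The median log2 fold change of the 9 was −0.28, beside −0.0036 over all tested genes. For 5 of the 9 genes the libraries of the groups did not overlap. The share of all tested genes without such overlap was not counted, here or in the comparisons below. These counts therefore describe the 9 genes alone and cannot be set against a background.

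In the Jun family, Junb encodes a Jun protein that can restrain growth genes driven by Jun. It had 337, 380 and 356 CPM with PgLPS, against 140, 154 and 161 CPM in control. Every PgLPS library stood far above every control library, and the log2 fold change was 1.24 ± 0.062 (edgeR adjusted p = 2.03e-12). Jun, the founding member of the family, had 121, 125 and 137 CPM with PgLPS, against 133, 140 and 145 CPM in control. These ranges overlapped, at a log2 fold change of −0.13 ± 0.066 (edgeR adjusted p = 0.106, 95% interval −0.27 to 0.014). Jund, the Jun gene known for steady expression in resting cells, had 7.24, 8.96 and 6.54 CPM with PgLPS, against 5.34, 8.34 and 7.55 CPM in control. Its libraries overlapped across most of their range, at 0.10 ± 0.20 (edgeR adjusted p = 0.681, 95% interval −0.31 to 0.51). The interval for Jund spans a change of either sign, so a difference of that size was not detectable here.

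In the Fos family, Fos, whose protein carries a strong activation domain, had 132, 143 and 144 CPM with PgLPS, against 217, 225 and 236 CPM in control. The PgLPS libraries were all lower, at −0.70 ± 0.056 (edgeR adjusted p = 2.21e-09). Fosl2, which encodes a shorter Fos-related protein, had 113, 91.1 and 111 CPM with PgLPS, against 48.5, 48.6 and 42.7 CPM in control. The PgLPS libraries were all higher, at 1.17 ± 0.11 (edgeR adjusted p = 2.49e-08), so the pair moved in opposite directions within the family. Fosb, a close relative of Fos, had 4, 5 and 6 reads (0.305, 0.325 and 0.360 CPM) with PgLPS, against 25, 38 and 35 reads (1.31, 1.91 and 1.96 CPM) in control. It fell by 2.35 ± 0.60 on the log2 scale (edgeR adjusted p = 0.00223), on counts that hold few reads in either group. Fosb passed the filter on low counts through control, where it was high, so its call against control is a description only. With no filter its value was −2.38 (edgeR adjusted p = 0.000527). Fosl1, another Fos-related gene, had 1.07, 0.455 and 1.20 CPM with PgLPS, against 0.995, 1.41 and 1.96 CPM in control. Its libraries overlapped, at −0.67 ± 0.45 (edgeR adjusted p = 0.197, 95% interval −1.61 to 0.26).

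Atf3 had 216, 237 and 226 CPM with PgLPS, against 306, 341 and 331 CPM in control. All PgLPS libraries were lower, at −0.52 ± 0.065 (edgeR adjusted p = 9.61e-07). Egr1 had 11.2, 9.22 and 12.2 CPM with PgLPS, against 15.6, 11.5 and 12.6 CPM in control. The highest PgLPS library exceeded the lowest control library, at −0.28 ± 0.16 (edgeR adjusted p = 0.136, 95% interval −0.62 to 0.057).

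Scaling by library totals alone shifted the median of all genes to −0.42 and changed these values by more than 1.5 times. The log2 fold changes were then 0.82 for Junb, 0.76 for Fosl2, −1.11 for Fos and −0.94 for Atf3, all still called, and Jun (−0.54), Egr1 (−0.70) and Fosl1 (−1.08) were called lower as well (edgeR adjusted p = 6.65e-07 for Jun, 0.000933 for Egr1 and 0.0357 for Fosl1). Relative to that shifted median, Jun stood at nearly the same place as under TMM scaling. Under library totals 1945 genes were called higher and 6963 lower, against 3750 and 3683 under TMM scaling. Without PgLPS library 1, the one with the most stromal messenger, the log2 fold changes were 1.28 for Junb, 1.12 for Fosl2, −0.66 for Fos, −0.49 for Atf3 and −2.31 for Fosb, and all 5 were called.

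**Figure D2:**
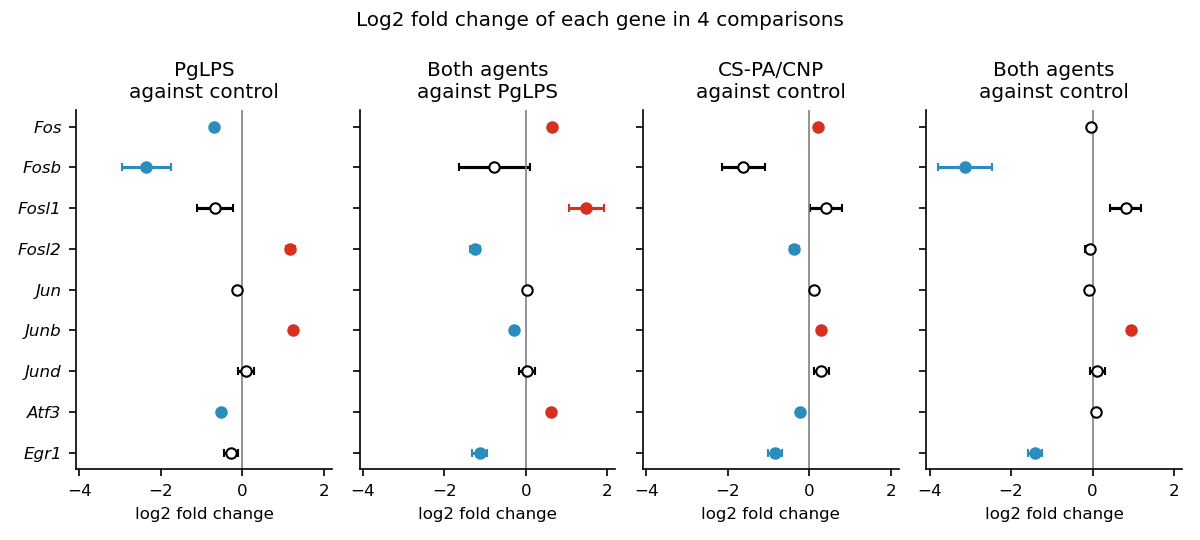
Log2 fold change of each gene (horizontal axis) in 4 comparisons, with bars of 1 standard error; red points were called higher, blue lower and open points were not called at an edgeR adjusted p under 0.05. In the first panel Junb and Fosl2 lie at 1.24 and 1.17 and Fos at −0.70; in the second Fos lies at 0.65 and Fosl2 at −1.24.

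The comparison of both agents with PgLPS alone asks what CS-PA/CNP changed in macrophages that also had PgLPS. Fos and Atf3, lower with PgLPS alone, were higher with both agents, and Fosl2 and Junb, higher with PgLPS alone, were lower. Egr1 was also lower, and Fosl1 was higher. The 3 genes called higher compare with 9.42% of all tested genes called higher, and the 3 called lower with 10.0% called lower. The median log2 fold change of the 9 was 0.02, beside −0.0051 over all tested genes. For 6 of the 9 the libraries of the groups did not overlap, a count without a share over all tested genes. Under library totals 1497 genes were called higher and 940 lower, against 1098 and 1170 under TMM scaling, and the numbers for the 9 genes were the same. This comparison shares the PgLPS libraries with the one before, so opposite signs between the pair of comparisons are not independent of each other.

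Fos had 220, 218 and 217 CPM with both agents, against 132, 143 and 144 CPM with PgLPS. The libraries with both agents lay close together and all above PgLPS, at 0.65 ± 0.056 (edgeR adjusted p = 8.95e-08). Fosl2 had 44.5, 35.8 and 52.9 CPM with both agents, against 113, 91.1 and 111 CPM with PgLPS. All libraries with both agents were lower, at −1.24 ± 0.11 (edgeR adjusted p = 1.52e-07), a level of 0.422-fold. Fosl1 had 2.54, 1.56 and 3.61 CPM with both agents, against 1.07, 0.455 and 1.20 CPM with PgLPS. The groups did not overlap, at 1.48 ± 0.43 (edgeR adjusted p = 0.0181), but the call was lost when PgLPS library 2 was left out (1.16, edgeR adjusted p = 0.0718) or when library 3 of both agents was (1.16, edgeR adjusted p = 0.102). Fosb had 8, 1 and 0 reads with both agents, against 4, 5 and 6 reads with PgLPS. Its few reads overlapped, and no difference was detectable at this depth (−0.78 ± 0.87, edgeR adjusted p = 0.605, 95% interval −2.61 to 1.06). Without library 1 of both agents, which held 8 of the 9 reads, the value was −3.14 (edgeR adjusted p = 0.092), and without library 2 or 3 of both agents it was −0.31 and −0.24.

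Junb had 287, 291 and 294 CPM with both agents, against 337, 380 and 356 CPM with PgLPS. The libraries with both agents were all lower, by a smaller step than that of Fosl2, at −0.30 ± 0.061 (edgeR adjusted p = 0.00149). Jun had 124, 140 and 130 CPM with both agents, against 121, 125 and 137 CPM with PgLPS. The ranges overlapped and the interval was narrow, at 0.04 ± 0.067 (edgeR adjusted p = 0.744, 95% interval −0.10 to 0.18). Jund had 6.90, 9.72 and 6.33 CPM with both agents, against 7.24, 8.96 and 6.54 CPM with PgLPS. The groups overlapped, at 0.02 ± 0.20 (edgeR adjusted p = 0.96, 95% interval −0.39 to 0.44).

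Atf3 had 341, 360 and 340 CPM with both agents, against 216, 237 and 226 CPM with PgLPS. All libraries with both agents were higher, at 0.62 ± 0.065 (edgeR adjusted p = 1.19e-06), a level of 1.53-fold. Egr1 had 5.21, 4.40 and 5.31 CPM with both agents, against 11.2, 9.22 and 12.2 CPM with PgLPS. All libraries with both agents were lower, at −1.13 ± 0.18 (edgeR adjusted p = 0.00012), a level of 0.455-fold. Without PgLPS library 1 the 6 calls held, with 0.61 for Fos, 0.58 for Atf3, 1.60 for Fosl1, −1.19 for Fosl2, −0.34 for Junb and −1.12 for Egr1.

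CS-PA/CNP alone was set against control to see what it changed in cells without PgLPS. Fos and Junb were higher, Atf3, Fosl2 and Egr1 were lower, and apart from Egr1 the steps were small, between 0.775-fold and 1.21-fold. The 2 genes called higher compare with 6.67% of all tested genes called higher, and the 3 called lower with 5.61% called lower. The median log2 fold change of the 9 was 0.13, beside 2.2e-05 over all tested genes. For 7 of the 9 the libraries of the groups did not overlap, again without a share over all tested genes. Under library totals 611 genes were called higher and 845 lower, against 777 and 654 under TMM scaling, and of the 9 genes 2 were called higher and 4 lower. The control libraries are the same as in the comparison with PgLPS.

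Egr1 had 6.46, 9.17 and 6.57 CPM with CS-PA/CNP, against 15.6, 11.5 and 12.6 CPM in control. All CS-PA/CNP libraries were lower, at −0.84 ± 0.16 (edgeR adjusted p = 0.00146), a level of 0.558-fold. Junb had 187, 182 and 183 CPM with CS-PA/CNP, against 140, 154 and 161 CPM in control. All CS-PA/CNP libraries were higher, at 0.28 ± 0.062 (edgeR adjusted p = 0.00471). Fos had 267, 262 and 260 CPM with CS-PA/CNP, against 217, 225 and 236 CPM in control. The CS-PA/CNP libraries were again all higher, at 0.22 ± 0.055 (edgeR adjusted p = 0.0122). Fosl2 had 36.3, 35.3 and 36.7 CPM with CS-PA/CNP, against 48.5, 48.6 and 42.7 CPM in control. Its CS-PA/CNP libraries were all lower, at −0.37 ± 0.11 (edgeR adjusted p = 0.0399). Atf3 had 255, 290 and 293 CPM with CS-PA/CNP, against 306, 341 and 331 CPM in control. Here too the groups did not overlap, at −0.22 ± 0.064 (edgeR adjusted p = 0.0286).

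The calls of Fos, Fosl2 and Atf3 in this comparison depended on single libraries. Fos was not called without control library 1 (0.18, edgeR adjusted p = 0.0765), control library 2 (0.20, 0.0569) or CS-PA/CNP library 1 (0.20, 0.0669). Atf3 was not called without control library 2 (−0.20, edgeR adjusted p = 0.105), control library 3 (−0.22, 0.0767) or CS-PA/CNP library 1 (−0.17, 0.135). Fosl2 was not called when any of 7 libraries was left out: control library 1 (edgeR adjusted p = 0.132) or 2 (0.119), CS-PA/CNP library 1 (0.0932), 2 (0.113) or 3 (0.0977), PgLPS library 3 (0.0526), or library 1 of both agents (0.0528).

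Fosb had 15, 3 and 15 reads (0.828, 0.162 and 0.670 CPM) with CS-PA/CNP, against 25, 38 and 35 reads in control. The groups did not overlap, but the difference of −1.62 ± 0.52 just missed the threshold (edgeR adjusted p = 0.0511), and it was called under 8 of 18 alternatives, at edgeR adjusted p between 0.00705 and 0.049. Jun had 148, 158 and 151 CPM with CS-PA/CNP, against 133, 140 and 145 CPM in control. Every CS-PA/CNP library was above every control library, by a step that was not called (0.13 ± 0.066, edgeR adjusted p = 0.269). Fosl1 had 2.60, 1.996 and 1.25 CPM with CS-PA/CNP, against 0.995, 1.41 and 1.96 CPM in control. Jund had 7.79, 8.63 and 9.69 CPM with CS-PA/CNP, against 5.34, 8.34 and 7.55 CPM in control. Both genes overlapped between the groups and were not called, at 0.41 ± 0.39 for Fosl1 and 0.30 ± 0.19 for Jund (edgeR adjusted p = 0.586 and 0.366).

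An interaction test then asked whether CS-PA/CNP acted differently in cells with PgLPS and in cells without it. For 4 of the 9 genes the effects differed: Fos and Atf3 had the higher value with PgLPS, and Fosl2 and Junb the lower. The 2 genes called with a positive difference compare with 7.46% of all tested genes, and the 2 with a negative one with 8.34%. The median difference of the 9 was −0.09, beside −0.0058 over all tested genes. Under library totals 1255 genes had a positive and 715 a negative difference, against 870 and 972 under TMM scaling, and the numbers for the 9 genes were the same. The pair of effects shares no libraries.

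Atf3 had the difference with the smallest adjusted p of the 9, at 0.84 ± 0.092 (edgeR adjusted p = 2.05e-06). CS-PA/CNP went with more Atf3 beside PgLPS (0.62) and with less without it (−0.22). Junb had the opposite signs, −0.30 with PgLPS and 0.28 without, and a difference of −0.58 ± 0.087 (edgeR adjusted p = 8.87e-05). Fos rose in both settings, by 0.65 with PgLPS and 0.22 without, and the difference was 0.43 ± 0.078 (edgeR adjusted p = 0.000616). Fosl2 fell in both, by 1.24 with PgLPS and 0.37 without, and the difference was −0.88 ± 0.16 (edgeR adjusted p = 0.000596). Egr1 also fell in both, by 1.13 with PgLPS and 0.84 without, and here the difference was not called (−0.29 ± 0.24, edgeR adjusted p = 0.505, 95% interval −0.80 to 0.22). Jun, Jund, Fosb and Fosl1 were not called either, at −0.09 ± 0.094, −0.28 ± 0.27, 0.84 ± 1.08 and 1.07 ± 0.58 (edgeR adjusted p = 0.632, 0.582, 0.692 and 0.261).

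**Figure D3:**
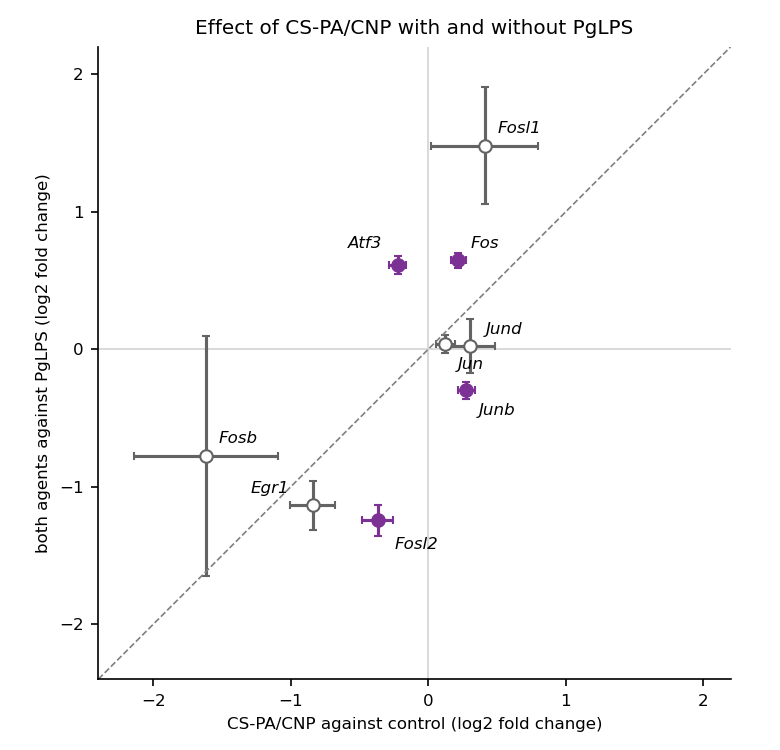
Log2 fold change of each gene for CS-PA/CNP against control (horizontal axis) and for both agents against PgLPS (vertical axis), with bars of 1 standard error; the dashed line marks equal effects and filled points are genes whose effects differed in the interaction test. Atf3 and Fos lie above the line and Fosl2 and Junb below it, while Jun and Egr1 lie near it.

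Cells with both agents were also set against control, to see how far each gene stood from its level in untreated cells. Junb was still higher, at 1.92-fold, and Egr1 and Fosb were lower, at 0.375-fold and 0.114-fold. The single gene called higher compares with 29.7% of all tested genes called higher. The 2 called lower, among them Fosb, which the filter kept through control, compare with 28.4% called lower. The median log2 fold change of the 9 was −0.05, beside −0.0058 over all tested genes. For 3 of the 9 the libraries of the groups did not overlap, and here too the share over all tested genes was not counted. This comparison shares its libraries with the ones above.

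Junb averaged 291 ± 3.6 CPM with both agents and 152 ± 11 CPM in control (SD, n = 3 each), a log2 fold change of 0.94 ± 0.062 (edgeR adjusted p = 1.75e-10). Egr1 averaged 4.97 ± 0.50 CPM with both agents and 13.2 ± 2.1 CPM in control (SD, n = 3 each), at −1.42 ± 0.17 (edgeR adjusted p = 1.14e-06), the lowest Egr1 group of the 4. Fosb had 9 reads over the 3 libraries with both agents and 98 reads over the control libraries, at −3.13 ± 0.66 (edgeR adjusted p = 0.000483). Since 8 of the 9 reads came from library 1 of both agents, the value without that library was −5.50 (edgeR adjusted p = 6.03e-05).

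Fos, Fosl2 and Atf3 lay close to control with both agents. Fos averaged 218 ± 1.8 CPM with both agents and 226 ± 9.6 CPM in control (SD, n = 3 each), with a 95% interval of −0.17 to 0.065 for the log2 fold change (edgeR adjusted p = 0.457). Fosl2 averaged 44.4 ± 8.6 CPM with both agents and 46.6 ± 3.3 CPM in control, with an interval of −0.31 to 0.16 (edgeR adjusted p = 0.598). Atf3 averaged 347 ± 11 CPM with both agents and 326 ± 18 CPM in control, with an interval of −0.045 to 0.23 (edgeR adjusted p = 0.245). Jun (−0.09 ± 0.066), Jund (0.12 ± 0.19) and Fosl1 (0.81 ± 0.39) were not called (edgeR adjusted p = 0.282, 0.623 and 0.0799). Under library totals, where the median of all genes was −0.37, Fos stood at −0.41, Jun at −0.45, Fosl2 at −0.44 and Atf3 at −0.27, and all 4 were called lower, so the sign of Atf3 turned while its place above the median of all genes did not. In that setting Junb stood at 0.57, still called higher, and over all genes 1808 were called higher and 6683 lower, against 3457 and 3305 under TMM scaling.

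The makeup of each family was described as the share of each member in the family's summed CPM per kilobase. Within a library these shares do not depend on the scaling between libraries, and they were not tested. In the Fos family, the share of Fos was 94.1%, 95.4% and 92.7% with both agents, 82.1%, 86.2% and 83.4% with PgLPS, 95.6%, 96.0% and 96.1% with CS-PA/CNP and 94.2%, 94.1% and 94.6% in control. The PgLPS libraries stood apart below all others. The share of Fosl2 was 4.63% ± 0.84 with both agents, 15.4% ± 1.8 with PgLPS, 3.20% ± 0.081 with CS-PA/CNP and 4.73% ± 0.51 in control (SD, n = 3 each). As the shares add up to the whole, the lower share of Fos with PgLPS appeared mainly as a higher share of Fosl2. Fosl1 and Fosb held at most 1.78% and 0.301% in any library. In level the gain of Fosl2 was much smaller than the loss of Fos. Per kilobase, Fos averaged 96.2 CPM in control and 59.3 CPM with PgLPS, and Fosl2 averaged 4.81 and 10.8 CPM.

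The ratio of Fos to Fosl2 per kilobase was 20.8 ± 4.1 with both agents, 5.53 ± 0.83 with PgLPS, 30.0 ± 0.71 with CS-PA/CNP and 20.1 ± 2.3 in control (SD, n = 3 each). In the Jun family, the share of Junb was 73.4% ± 1.4 with both agents, 77.7% ± 1.0 with PgLPS, 60.2% ± 1.2 with CS-PA/CNP and 57.9% ± 0.41 in control. The share of Jun was 23.9% ± 0.89 with both agents, 20.1% ± 1.3 with PgLPS, 35.9% ± 0.98 with CS-PA/CNP and 38.4% ± 0.83 in control. Junb stood at 3.07 ± 0.17 times Jun with both agents, 3.89 ± 0.31 times with PgLPS alone, 1.68 ± 0.077 times with CS-PA/CNP and 1.51 ± 0.040 times in control. The Junb share with both agents thus lay between those of PgLPS and control and overlapped neither, while the shares of Fos and Fosl2 with both agents overlapped control.

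The summed Fos family messenger was 98.8 ± 1.6 CPM per kilobase with both agents, 70.7 ± 2.4 with PgLPS, 117 ± 1.8 with CS-PA/CNP and 102 ± 4.1 in control (SD, n = 3 each). The summed Jun family messenger was 172 ± 4.2 CPM per kilobase with both agents, 200 ± 11 with PgLPS, 133 ± 0.71 with CS-PA/CNP and 114 ± 7.4 in control. With PgLPS the Fos family was at its lowest and the Jun family at its highest, while with CS-PA/CNP alone both sums were above control in every library.

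**Figure D4:**
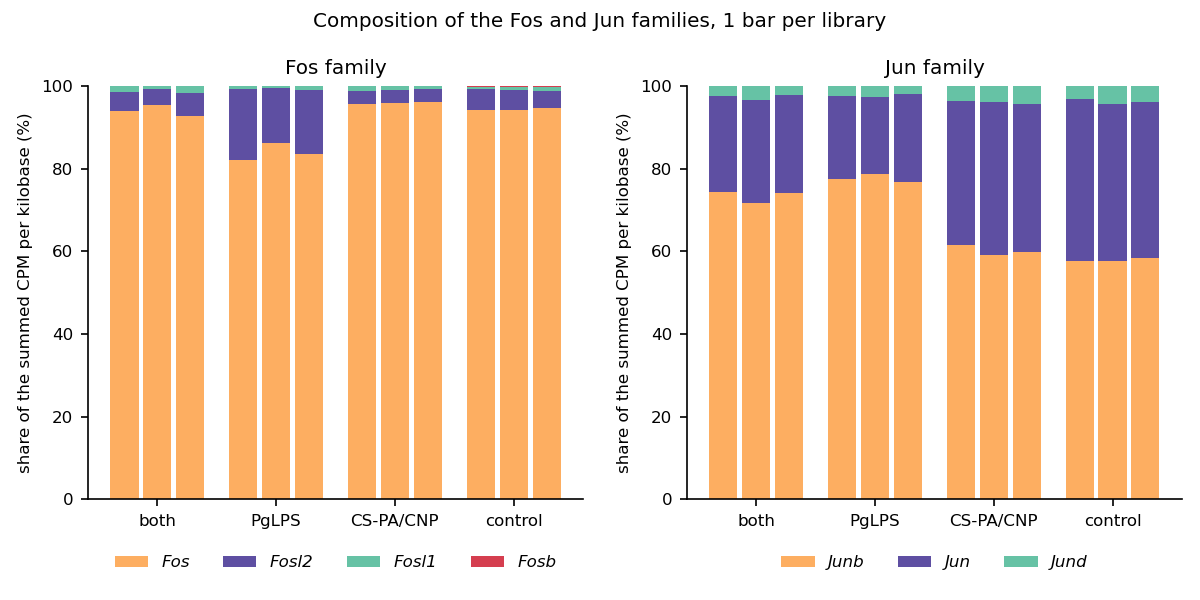
Share of each member in the summed CPM per kilobase of the Fos family (left) and the Jun family (right), in %, with 1 stacked bar per library and 3 libraries per group, where "both" means PgLPS with CS-PA/CNP. Fosl2 takes 13.4% to 17.0% of the Fos family with PgLPS alone, and Junb takes 71.8% or more of the Jun family with PgLPS or both agents.

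Other genes of the pathway were counted in 5 lists. Counts under library totals are to be read against the numbers of all genes called in that setting, given with each comparison above. With PgLPS or both agents against control, that setting called far more genes lower than higher. The counts under TMM scaling with all 12 libraries are to be read against the shares of all tested genes that were called. Those shares, higher and lower, were 32.2% and 31.6% for PgLPS against control, 9.42% and 10.0% for both agents against PgLPS, 6.67% and 5.61% for CS-PA/CNP against control, 29.7% and 28.4% for both agents against control, and 7.46% and 8.34% for the interaction.

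Among 15 zipper partners and competitors of AP-1, 10 rose and 1 fell with PgLPS against control, beside 32.2% and 31.6% of all tested genes, with a median log2 fold change of 0.50. Under library totals, where far more of all tested genes were called lower than higher, 7 rose and 3 fell. The lower count was 0 in DESeq2 and without control library 1, PgLPS library 2 or PgLPS library 3. Examples were Batf2 at 4.03, Nfil3 at 2.42 and Maf at 1.89 (edgeR adjusted p = 1.41e-14, 1.64e-12 and 1.11e-15), of which Batf2 is a partner of Jun proteins that lacks an activation domain. With both agents against PgLPS, 1 rose (0 without library 1 of both agents) and 5 fell, with a median of −0.13, led by Nfil3 at −1.05, Batf at −1.09 and Jdp2, a repressor of AP-1, at −0.51 (edgeR adjusted p = 1.19e-06, 5.4e-05 and 0.00208). With CS-PA/CNP against control 3 rose, among them Mafg and Maff, and 0 fell in edgeR (1 at an unadjusted p under 0.05, and 0 in DESeq2).

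Among 19 tested kinases of the MAP kinase cascade, which phosphorylates Jun and Fos proteins, 10 rose and 2 fell with PgLPS against control, beside 32.2% and 31.6% of all tested genes, with a median of 0.27. Mapkapk2, a substrate of p38, was at 1.54, Map2k1, which activates ERK, at 1.03 and Map3k8, a kinase of the lipopolysaccharide pathway, at 2.09 (edgeR adjusted p = 1.1e-13, 2.56e-12 and 3.79e-12). Under library totals, where far more of all tested genes were called lower than higher, the split was 4 higher and 9 lower. With both agents against PgLPS 5 fell and 0 rose in edgeR (0 at an unadjusted p under 0.05, and 0 in DESeq2), led by Map3k5 at −0.94, Map2k1 at −0.39 and Mapkapk2 at −0.30 (edgeR adjusted p = 8.81e-06, 2.05e-05 and 0.00184). With CS-PA/CNP against control 3 rose, Mapk14, Mapkapk2 and Map2k2 at 0.27 to 0.31, and 0 fell in edgeR (1 at an unadjusted p under 0.05, and 0 in DESeq2).

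Among 8 regulators that control Fos and Egr1 transcription or restrain Egr1, 5 rose and 2 fell with PgLPS against control, beside 32.2% and 31.6% of all tested genes. Under library totals, where far more of all tested genes were called lower than higher, the split was 3 and 3. Nab1, a co-repressor of Egr1, was at 1.22 and the ternary complex factor Elk3 at 0.74 (edgeR adjusted p = 1.16e-11 and 1.68e-08). With both agents against PgLPS 5 fell and 0 rose in edgeR (0 at an unadjusted p under 0.05, and 0 in DESeq2), led by Nab1 at −0.32, Mrtfa at −0.34 and Elk3 at −0.28 (edgeR adjusted p = 0.00198, 0.0026 and 0.0049). That lower count was 3 under library totals and when PgLPS library 1 or 3, or library 1 or 2 of both agents, was left out. With CS-PA/CNP against control, Elk3 was the single gene called, at 0.24 (edgeR adjusted p = 0.0252), while 0 fell in edgeR (1 at an unadjusted p under 0.05, and 0 in DESeq2). Under library totals 0 rose and 1 fell. The higher count was also 0 without control library 2 or 3 or without CS-PA/CNP library 1 or 2, and 1 was called lower with no filter on low counts, with only the 2 groups compared and without library 2 of both agents.

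Among 19 tested immediate-early genes outside the 9, 10 rose and 8 fell with PgLPS against control, beside 32.2% and 31.6% of all tested genes, with a median of 0.74. Ier3, an early stress gene, was at 4.08 and Sgk1, a kinase gene, at 1.24, while Egr2, the zinc finger relative of Egr1, was at −2.09 (edgeR adjusted p = 9.35e-17, 2.07e-12 and 2.45e-14). With both agents against PgLPS 4 rose and 7 fell, led by Egr2 at 1.20, Myc at 1.10 and Btg1 at −0.70 (edgeR adjusted p = 3.99e-09, 6.56e-07 and 2.42e-08). Egr2 was thus higher with both agents than with PgLPS, whereas Egr1 was lower. With CS-PA/CNP against control 2 rose and 3 fell, led by Ier3 at 1.33 and Sgk1 at 0.45, with Btg2 at −0.52.

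Among 19 tested textbook targets of AP-1, 12 rose and 6 fell with PgLPS against control, beside 32.2% and 31.6% of all tested genes, with a median of 1.60. The 6 lower targets are the share found over all tested genes. The collagenase gene Mmp13 was at 6.05 and the membrane protease gene Mmp14 at 6.76, while Plau, the urokinase gene, was at −4.69 (edgeR adjusted p = 9.97e-20, 9.97e-20 and 1.25e-20). With both agents against PgLPS 4 rose and 9 fell, with Il1b, the cytokine gene, at −2.62, Mmp13 at −1.58 and Plau at 1.23 (edgeR adjusted p = 5.01e-11, 8.09e-11 and 6.48e-11). With CS-PA/CNP against control 5 rose and 3 fell, among them Mmp14 at 1.29, Plau at −1.37 and Spp1, the osteopontin gene, at −0.85. The lower count was 5 without CS-PA/CNP library 1. With both agents against control the numbers called higher and lower were 10 and 1 for the zipper list, 10 and 4 for the MAP kinase list, 4 and 2 for the Fos and Egr1 regulators, 8 and 7 for the other immediate-early genes and 12 and 6 for the targets. Under library totals these were 7 and 4, 5 and 9, 1 and 4, 6 and 11, and 11 and 7, in the same order of lists. There too far more of all tested genes were called lower than higher. In the interaction the numbers were 0 and 6 for the zipper list, 0 and 4 for the MAP kinase list, 0 and 3 for the Fos and Egr1 regulators, 3 and 5 for the other immediate-early genes and 3 and 8 for the targets in edgeR. The 3 counts of 0 were 1, 0 and 0 at an unadjusted p under 0.05, and 0 in DESeq2 for each. Under library totals the zipper list had 1 positive and 5 negative differences. The targets respond to many other factors, and these counts do not assign any of them to AP-1.

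The genes most like 4 of the members in their group pattern were found by the root mean square difference between the 4 centred group means of log2 CPM, among 9194 genes of at least 5 CPM. Nearest to Fos were Baiap2 (0.0505), Tmem205 (0.0582) and Gabarapl1 (0.0602). Nearest to Atf3 were Hmgn3 (0.0334), Loxl3 (0.0378) and Atp6v1b2 (0.0461). Jun, which varied little, had close neighbours in Emc1 (0.0075) and Zfp212 (0.011). Egr1 had none as near, with Trip13 (0.163), Lsm11 (0.248) and Plxdc2 (0.263). Among the 9 genes themselves the nearest pair was Jun and Jund (0.0926), followed by Jun and Atf3 (0.240), and the distance between Fosl2 and Junb was 0.423 against 0.926 between Fosl2 and Fos. These distances rest on 4 group means and carry no test.

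In gene structure the Jun family stood out. Jun, Junb and Jund each have 1 exon in GENCODE vM21 on GRCm38, as do 2.60% of 8593 tested genes with a 3′ UTR there, while the 4 Fos genes and Atf3 have 4 exons and Egr1 has 2. The pentamer ATTTA, the core of the AU-rich elements found in short-lived messengers, occurred in the 3′ UTR of all 9 genes, and in 67.8% of all those genes. Per kilobase it was densest in Fos (4.91), Junb (4.12), Jun (3.24) and Atf3 (2.53), followed by Jund (1.88), Fosl2 (1.72), Egr1 (1.64) and Fosl1 (1.57), all above the median of 1.29 over all those genes. Fosb was below it, at 0.466. The 4 densest genes are the 4 most abundant per kilobase in each group, and no link between the pair of measures was tested.

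Some of these genes overlap another gene on the opposite strand in that annotation, and whether the libraries kept strand is not stated in what was used here, so reads in a shared stretch could belong to either gene. Junb shares 351 bases with Prdx2, which was at 0.73 ± 0.090 with PgLPS against control and at −0.06 ± 0.089 with both agents against PgLPS. Fosl1 shares 2767 bases with Ccdc85b, at −0.70 ± 0.13 and 0.09 ± 0.13 in the same pair of comparisons, so the few Fosl1 reads are uncertain. Jun, Jund and Atf3 overlap the noncoding genes Junos, Gm11175 and Gm24748, which were not analysed here.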

How the data were processed

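RNA sequencing of 12 libraries in 4 groups was used. The authors deposited 1 table of 21899 genes with whole-number read counts that were not normalized. The table's gene length in bases, an other value deposited with the counts, gave levels per kilobase. HISAT2 2.0.5, HTSeq 0.9.1, DESeq 1.30.0 and cutadapt 1.15 are named, without a role, per the submitters' processing notes. Genome build, annotation and strandedness are not given in the sources used. The table's 12 FPKM columns were not used, so levels planned as FPKM are counts per kilobase scaled by TMM. Count columns went to groups by the letters in their names, C for control, M for CS-PA/CNP, L for PgLPS and LM for both agents. Their numbers could not be matched to sample titles.

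The counts were fitted with edgeR 4.0.16 (R 4.3.3) and its quasi-likelihood test, with TMM scaling, the filterByExpr filter by group, 1 mean per group and 2-sided tests. The 11656 genes tested held 99.97% of reads. On simulated counts the same code called 196 of 200 changed genes. These were drawn from genes with many reads, and no shift in composition between groups was simulated. The result therefore does not cover Fosb, Fosl1 or the choice of scaling. Alternatives were DESeq2 size factors in edgeR, library totals, no filter, the Wald test of DESeq2 1.42.0, only the 2 groups compared, a replicate block and leaving out each library. Reads without molecular identifiers count PCR copies as well as molecules. The 9 members and the lists were chosen with earlier results of these data known. All 9 are named in every comparison, and from each list the 3 tested genes with the smallest adjusted p. A few genes that this rule would name are not reported here.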

Additional observations from a re-analysis of the deposited data

Results flagged for a closer look

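Of the 9 genes, 4 had an effect of CS-PA/CNP that differed between cells with and without PgLPS in the interaction test of edgeR. Of all tested genes, 7.46% were called with a positive difference and 8.34% with a negative one. Atf3 differed by 0.84 ± 0.092 on the log2 scale (edgeR adjusted p = 2.05e-06), and all 3 libraries with both agents lay above the 3 with PgLPS while all 3 with CS-PA/CNP lay below the 3 control libraries. Junb differed by −0.58 ± 0.087 (edgeR adjusted p = 8.87e-05), with the libraries on the opposite sides in each setting. Fosl2 differed by −0.88 ± 0.16 (edgeR adjusted p = 0.000596) and Fos by 0.43 ± 0.078 (edgeR adjusted p = 0.000616), each with the same sign in both settings and the larger size with PgLPS. All 4 calls held under each of the 17 alternatives run.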

How the results depend on the processing

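There were 18 alternatives, and 17 for the interaction, which needs all 4 groups. In PgLPS against control the calls of Fos, Fosb, Fosl2, Junb and Atf3 held under all 18, and so did those of Fos, Fosl2, Junb, Atf3 and Egr1 in both agents against PgLPS, of Junb and Egr1 in CS-PA/CNP against control, and of Junb, Egr1 and Fosb in both agents against control. Under library totals 6 members were called lower in PgLPS against control and 6 in both agents against control. Most of all tested genes were also called lower there in this pair of comparisons, so these counts do not set the members apart. There Jund turned to −0.32 in PgLPS against control and −0.24 in both agents against control, Atf3 to −0.27 in both agents against control (edgeR adjusted p = 0.000684; 0.000684 to 0.713 over all alternatives) and Jun to 0.0066 in the interaction. With 1 library left out, the members called in CS-PA/CNP against control numbered 1 to 2 higher and 1 to 4 lower, and 1 to 2 were called higher in both agents against control, where Fosl1 was called without library 2 of both agents (1.08, edgeR adjusted p = 0.0244). With 1 library left out, Jund ranged from −0.090 to 0.21 in PgLPS against control, −0.19 to 0.16 in both agents against PgLPS and −0.10 to 0.24 in both agents against control. Jun ranged from −0.0083 to 0.10 in both agents against PgLPS, Fosl2 from −0.22 to 0.062 in both agents against control, and Fosb from −1.52 to 1.37 in the interaction. Over all genes, CS-PA/CNP against control called 417 lower without control library 1 and 406 without CS-PA/CNP library 3, against 654. Other counts over all genes with a library left out or with a replicate block are not given here. The member and list counts in those settings therefore cannot be set against a background. Jun in PgLPS against control was called without control library 1 (−0.18, edgeR adjusted p = 0.0398) and without PgLPS library 3 (−0.18, edgeR adjusted p = 0.0414). The cause of these changes was not tested, except that library totals shift the median of all genes. Same-numbered libraries had a median r of 0.10 (−0.091 to 0.32, over 0.1 in 9 of 18 pairs), against −0.062 for different numbers (over 0.1 in 6 of 36). Not every same-numbered pair was over 0.1 and the labels tie no number to a culture or day, so the numbers were not taken to pair the libraries. The pairs numbered 1 or 2 were all positive, from 0.041 to 0.32, while those numbered 3 had either sign. Whether same-numbered libraries share a culture or day was not tested. With a replicate block, 1 of the Fos and Egr1 regulators was called lower in CS-PA/CNP against control, 1 MAP kinase gene was positive in the interaction, 4 members were called lower in PgLPS against control, with Jun at −0.13 (edgeR adjusted p = 0.0487), and 4 in CS-PA/CNP against control, with Fosb at −1.69 (edgeR adjusted p = 0.0226). Depth limits Fosb, with 9 to 98 reads per group, and Fosl1, with 41 to 119. The filter kept Fosb through control, where it was high, so its calls against control are descriptions only.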
